A study of Homo sapiens with 32 samples.

Results

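PIK3CA, PIK3R1, FGFR2, FBXW7, ARID1A, CTCF and POLE are genes that are recurrently mutated in endometrial cancer. These 7 of the 35238 genes in an RNA sequencing table were taken for that property, with earlier results of these data known. Their mRNA levels were followed in 4 endometrial cancer cell lines treated for 24 h with vehicle (0.1% DMSO), paclitaxel, SM08502 or both drugs. Per the labels, Ishikawa is CTNNB1-wildtype, and Ishikawa-S33Y, SNGM and HEC265 are CTNNB1-mutated, CTNNB1 being the gene of beta-catenin. The name Ishikawa-S33Y joins that of Ishikawa to a beta-catenin substitution; how the line was made and whether it is a single clone are not given in the sources used here. Paclitaxel, a taxane that stabilises microtubules, was given at 11 nM to Ishikawa, 6 nM to Ishikawa-S33Y, 11.7 nM to SNGM and 5.6 nM to HEC265. SM08502, an inhibitor of the CDC-like kinases that phosphorylate SR splicing proteins, was given at 80, 85, 350.7 and 149 nM in the same order. Each dose was the IC50 of that drug for viability of that line. The 16 groups of line and treatment held 2 libraries each, and nothing in the labels beyond plating in duplicate says how far these were separate cultures, so p-values measure only the spread between such duplicates. Dose and RNA input (350 ng for Ishikawa, 500 ng for the other lines) cannot be told apart from the line. Which of the 7 genes carry mutations in these lines was not analysed here.

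The 7 genes act in 4 systems. FGFR2 is a receptor for fibroblast growth factors, and PIK3CA and PIK3R1 encode the catalytic and the regulatory subunit of a lipid kinase, PI3K, that such receptors switch on and that leads to AKT and mTOR. FBXW7 is the substrate-binding part of a ubiquitin ligase that marks cyclin E, MYC and NOTCH proteins for degradation. ARID1A is a DNA-binding subunit of the SWI/SNF complexes that move nucleosomes, and CTCF is the zinc finger protein that, with cohesin, sets the ends of chromatin loops. POLE is the catalytic subunit of DNA polymerase epsilon, which copies the leading strand and proofreads it. In endometrial cancer POLE is known for mutations of its proofreading domain, PIK3CA and FGFR2 for activating mutations, and PIK3R1, ARID1A, FBXW7 and CTCF largely for loss of function.

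Values are CPM, a gene's reads scaled to a common library total, so a higher value means a larger share of a library's reads; in bulk samples fewer cells with a transcript and less of it per cell cannot be told apart. CPM is not divided by transcript length, and levels are therefore compared between libraries and not between genes. Depth was 13.0 to 34.1 M reads in 30 libraries, and 2.99 and 1.61 M in replicate 2 of the combination in Ishikawa-S33Y and SNGM. The fewest reads behind a value of these 7 genes were 62, for FGFR2 in that Ishikawa-S33Y library. Replicates differed most in Ishikawa, by a root mean square log2 difference of 0.59 with paclitaxel and 0.48 with SM08502, against 0.07 to 0.12 in the HEC265 groups. A length score was computed for each library, the average log2 value of 40 genes that have long transcripts less that of 78 genes of ribosomal proteins. It was -1.69 and -3.37 in the paclitaxel replicates of Ishikawa, -2.43 and -3.36 in its SM08502 replicates, and -1.98 or higher in all libraries of the other lines. All 8 epithelial markers exceeded 1 CPM in every library. A list of 6 stromal fibroblast markers summed to 714 to 1165 CPM in Ishikawa-S33Y, nearly all of it COL1A1, while LUM and PDGFRB did not pass the filter on low values, and to 31.4 to 194 CPM in Ishikawa and at most 9.02 CPM elsewhere; whether this bears on the values below was not tested. Leukocyte and endothelial lists summed to at most 5.65 and 10.6 CPM.

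All 7 genes passed the filter on low values, and a change is the difference of log2(CPM + 1) in a limma model of all 32 libraries, called at an adjusted p under 0.05 over 17011 genes. With SM08502, FBXW7 was called higher in all 4 lines, FGFR2 lower in Ishikawa-S33Y, SNGM and HEC265, and POLE lower in Ishikawa and Ishikawa-S33Y. FGFR2 also lay lower in Ishikawa, where it missed the threshold (-0.42, adjusted p = 0.0693). Averaged over the 4 lines, 1 of the 7 genes was called higher (FBXW7) and 2 lower (FGFR2 and POLE), where 38.5% of all genes tested were called, 22.6% higher and 15.8% lower. In single lines 3 of 7 were called in Ishikawa (background 15.2%), 5 in Ishikawa-S33Y (29.1%), 3 in HEC265 (14.7%) and 2 in SNGM (7.86%). When 1 library was left out these counts ran from 0 to 4 in Ishikawa, 2 to 6 in Ishikawa-S33Y, 1 to 3 in HEC265 and 1 to 3 in SNGM, and that of the mean over lines from 3 to 5, with 5 (PIK3CA and CTCF added) without SM08502 replicate 2 of Ishikawa. In each line the lowest count came without a vehicle or SM08502 library of the line itself. The median change of the 7 genes in the mean over lines was 0.11, beside 0.05 for all genes tested. With the combination, FBXW7, PIK3CA and CTCF were called higher and FGFR2 and POLE lower in the mean over lines, where 49.1% of genes were called, 29.0% higher and 20.1% lower. The combination called 3 of 7 in Ishikawa (22.8%), 6 in Ishikawa-S33Y (42.0%), 3 in HEC265 (19.5%) and 2 in SNGM (18.4%). With paclitaxel alone 0 of 7 were called in any line. The SM08502 and combination comparisons share their vehicle libraries, so their values are given side by side.

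**Figure D1:**
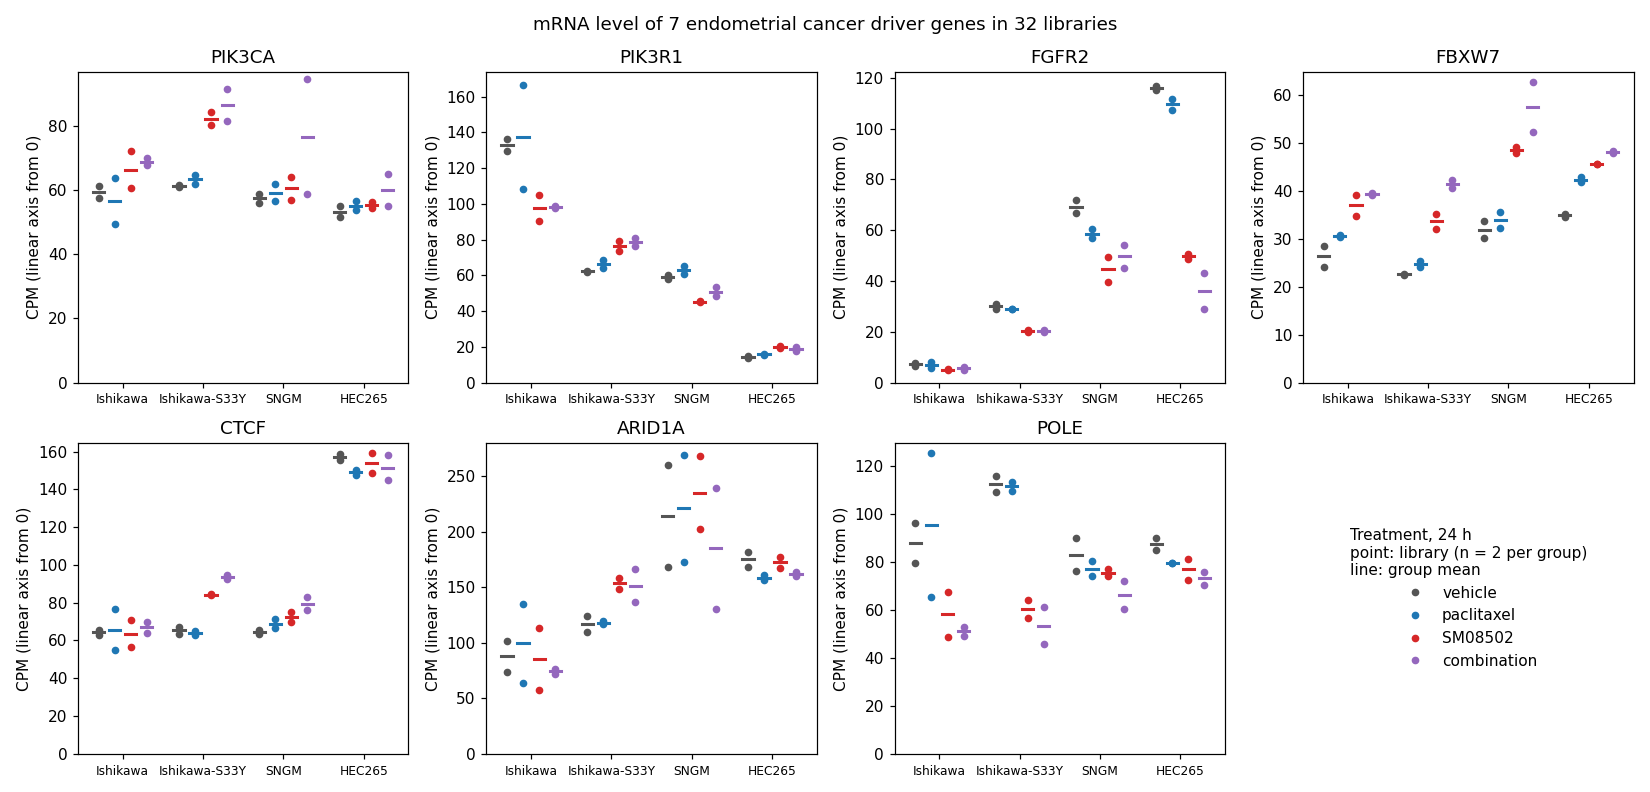
CPM of each gene (vertical axis, linear from 0) in the 4 lines (horizontal axis); points are single libraries coloured by treatment, and short lines are group means of 2 libraries. FBXW7 lies higher with SM08502 and with the combination in every line, and FGFR2 lies lower. The Ishikawa replicates of ARID1A and POLE lie far apart with paclitaxel and with SM08502.

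The stretches of DNA before the start of the 3 genes called in the mean over lines are shown because these genes have a called change in that mean. They were read from RefSeq (GRCh38.p14) and cover the 250 bases before the outermost listed start, on the gene's own strand. The outermost start listed for FGFR2 lies a few bases inside the annotated end of the gene. All 3 genes are read from the minus strand: POLE at chromosome 12, 132623762 to 132687342, FGFR2 at chromosome 10, 121478330 to 121598458, and FBXW7 at chromosome 4, 152320544 to 152536092. The other 4 lie at chromosome 3, 179148126 to 179240093 (PIK3CA), chromosome 5, 68215756 to 68301821 (PIK3R1), chromosome 1, 26696015 to 26782104 (ARID1A), and chromosome 16, 67562526 to 67639177 (CTCF). The windows are chr12:132687343-132687592 for POLE, with 1 listed start, chr10:121598445-121598694 for FGFR2, with 5, and chr4:152536093-152536342 for FBXW7, with 4. Both strands were searched for an E2F motif (TTTGGCGC), a CCAAT box (CCAAT), a TCF/LEF motif (CTTTGAT) and an E-box (CACGTG), and matches are in capitals.
POLE: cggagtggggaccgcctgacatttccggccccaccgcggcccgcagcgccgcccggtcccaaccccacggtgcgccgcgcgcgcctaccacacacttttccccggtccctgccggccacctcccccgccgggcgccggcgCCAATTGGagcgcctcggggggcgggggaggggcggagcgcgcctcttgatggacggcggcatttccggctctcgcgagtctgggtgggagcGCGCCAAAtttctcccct
FGFR2: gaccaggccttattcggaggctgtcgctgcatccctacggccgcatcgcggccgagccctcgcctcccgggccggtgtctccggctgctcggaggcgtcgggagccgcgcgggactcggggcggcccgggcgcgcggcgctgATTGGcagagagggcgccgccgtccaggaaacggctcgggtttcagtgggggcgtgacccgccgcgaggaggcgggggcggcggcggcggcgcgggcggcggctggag
FBXW7: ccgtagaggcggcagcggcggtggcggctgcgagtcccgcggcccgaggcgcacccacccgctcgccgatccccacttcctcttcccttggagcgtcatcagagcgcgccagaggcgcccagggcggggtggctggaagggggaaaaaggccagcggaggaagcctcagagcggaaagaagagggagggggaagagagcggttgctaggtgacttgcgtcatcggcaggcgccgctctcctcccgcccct
The POLE window holds the E2F motif on the reverse strand, beginning 18 bases before the start, and a CCAAT box on each strand, overlapping one another, 110 and 107 bases before it. FGFR2 holds 1 CCAAT box, on the reverse strand, 108 bases before the start, and FBXW7 holds none of the 4 motifs in these letters. Of 35116 windows of this length, 0.55% hold the E2F motif, 32% a CCAAT box, 2.26% the TCF/LEF motif and 6.34% the E-box. GC content was 75.2%, 78.4% and 70.4% in POLE, FGFR2 and FBXW7. A match describes the letters only, since no binding was measured here.

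FGFR2, the receptor of the group, varied more between lines than the other 6 genes. It lay lower with SM08502 in every line, and the fall was called in each line except Ishikawa. On vehicle its replicates read 30.9 and 29.1 CPM in Ishikawa-S33Y, 6.47 and 7.83 in Ishikawa, 115 and 117 in HEC265 and 72.0 and 66.6 in SNGM. No 2 lines overlapped, and all 6 differences between lines were called (limma, adjusted p from 2.65e-15 to 3.81e-04). Relative to Ishikawa, mean CPM was 4.19-fold in Ishikawa-S33Y, 9.69-fold in SNGM and 16.2-fold in HEC265. Such calls were common on vehicle. Ishikawa-S33Y and Ishikawa differed in 2 of the 7 genes and 48.3% of all genes, SNGM and Ishikawa in 4 and 66.8%, and HEC265 and Ishikawa in 5 and 63.3%. SNGM and Ishikawa-S33Y differed in 3 and 60.8%, HEC265 and Ishikawa-S33Y in 4 and 58.0%, and HEC265 and SNGM in 3 and 54.9%.

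With SM08502, FGFR2 read 50.5 and 48.9 CPM in HEC265, 39.7 and 49.4 in SNGM, 20.0 and 20.7 in Ishikawa-S33Y and 5.20 and 4.93 in Ishikawa. In every line both treated libraries lay below both vehicle libraries. The log2 change was -1.21 in HEC265 (SE 0.16, adjusted p = 2.09e-05), and mean CPM fell by 57.2%. It was -0.63 in SNGM (adjusted p = 0.0129) and -0.54 in Ishikawa-S33Y (adjusted p = 0.0125). In Ishikawa, where the level is lowest, the change of -0.42 (95% interval -0.74 to -0.10) missed the threshold (adjusted p = 0.0693). The mean over lines was -0.70 (SE 0.08, adjusted p = 5.14e-07) and was called under each alternative run. The change in HEC265 was not shown to differ from that in Ishikawa (difference -0.79, adjusted p = 0.0604), Ishikawa-S33Y (-0.67, adjusted p = 0.0776) or SNGM (-0.58, adjusted p = 0.207). Nor were the changes in Ishikawa-S33Y and SNGM shown to differ from that in Ishikawa (-0.12 and -0.21, adjusted p = 0.849 and 0.639). The SNGM call was lost when SNGM libraries alone set the spread (adjusted p = 0.109, range over alternatives 0.00121 to 0.109) and without vehicle replicate 1 or 2 or SM08502 replicate 1 of SNGM (adjusted p = 0.113, 0.0514 and 0.212). The Ishikawa-S33Y call was lost without its vehicle replicate 1 or either SM08502 replicate (adjusted p = 0.0861, 0.0721 and 0.0565).

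With the combination, FGFR2 read 43.2 and 29.1 CPM in HEC265, 45.2 and 54.1 in SNGM, 20.0 and 20.7 in Ishikawa-S33Y and 5.13 and 6.20 in Ishikawa. Against vehicle it fell by 1.68 on the log2 scale in HEC265 (SE 0.16, adjusted p = 2.56e-07), by 0.54 in Ishikawa-S33Y (adjusted p = 0.00849) and by 0.48 in SNGM (adjusted p = 0.0365). The Ishikawa value was -0.29 (adjusted p = 0.188). Here the change in HEC265 did differ from that in each other line, by -1.39, -1.15 and -1.21 for Ishikawa, Ishikawa-S33Y and SNGM (adjusted p = 7.88e-04, 0.00113 and 0.00229). Within HEC265 both combination libraries lay below both SM08502 libraries, but that difference of -0.47 was not called (adjusted p = 1). The SNGM call was lost in SNGM libraries alone (adjusted p = 0.122) and without the filter (adjusted p = 0.0556, range over alternatives 0.0101 to 0.122). It was also lost without either SNGM vehicle replicate (adjusted p = 0.170 and 0.0986) or combination replicate 1 (adjusted p = 0.145), and the Ishikawa-S33Y call without its vehicle replicate 1 (adjusted p = 0.0617).

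The other receptors of the family moved the same way in the mean over lines. Of 24 other genes of FGF receptor signalling, all tested, 5 were called higher and 6 lower with SM08502 (background 38.5%). Their median was -0.06 beside 0.05 for all genes. The 3 other signalling receptors were among those lower: FGFR3 (-1.24, adjusted p = 1.05e-09), FGFR4 (-0.75, adjusted p = 2.13e-07) and FGFR1 (-0.66, adjusted p = 1.22e-04). FGFR3 went from 30.7 to 7.53 CPM in Ishikawa-S33Y. The ligand genes FGF18 (-0.58), FGF9 (-0.26) and FGF10 (-0.14, at most 1.55 CPM) were also lower, and FGF7 (0.28) was higher. Single-line calls were in Ishikawa and HEC265 for FGF18 and in Ishikawa and Ishikawa-S33Y for FGF9. FGF10 and FGF7 were called only in Ishikawa-S33Y, and FGF10 had 0 CPM on vehicle in the other lines. Genes called higher included DUSP6, a phosphatase that switches off ERK (0.57, adjusted p = 1.69e-07), KLB, a co-receptor for endocrine FGFs (0.56), the transcription factor ETV5 (0.40) and the adaptor FRS2 (0.23). By line, KLB and FRS2 were called only in Ishikawa-S33Y (1.48 and 0.61), and vehicle means of KLB were low, 1.27 to 2.43 CPM. FGFR1, the ligands, ETV5 and FRS2 were named after their values were seen. In Ishikawa-S33Y 7 of the list rose and 5 fell (background 29.1%), and in HEC265 1 rose and 5 fell (14.7%). The counts were 2 and 2 in SNGM (7.86%) and 1 and 6 in Ishikawa (15.2%).

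PIK3CA, the catalytic PI3K subunit, was the most even of the 7 genes between lines on vehicle. Vehicle libraries read 60.9 and 61.5 CPM in Ishikawa-S33Y, 57.4 and 61.3 in Ishikawa, 54.9 and 51.5 in HEC265 and 58.9 and 56.0 in SNGM, and 0 of 6 pairs of lines was called. The largest difference on vehicle was -0.20 for HEC265 minus Ishikawa-S33Y (95% interval -0.52 to 0.12, adjusted p = 0.289), which quantile normalization and a fit to those lines alone did call (adjusted p = 0.0235 and 0.0356, range 0.0235 to 0.957). In Ishikawa-S33Y it read 80.3 and 84.2 CPM with SM08502 and 81.6 and 91.6 with the combination. These 4 libraries lay above both vehicle libraries, and both changes were called, 0.42 with SM08502 (SE 0.15, adjusted p = 0.0450) and 0.49 with the combination (adjusted p = 0.0140). With SM08502 the values were 0.15 in Ishikawa, 0.07 in SNGM and 0.05 in HEC265, none called. The SM08502 change in Ishikawa-S33Y was not shown to differ from these in the limma model (adjusted p = 0.590, 0.345 and 0.399). The mean over lines was 0.18 with SM08502 (adjusted p = 0.0792) and 0.31 with the combination (adjusted p = 0.00217). The SM08502 call in Ishikawa-S33Y lies at the threshold: it held under 7 of 11 alternatives (adjusted p 0.00279 to 0.101) and in 10 of 32 fits that left out 1 library (adjusted p 0.00700 to 0.194). The combination call there was lost without either vehicle replicate (adjusted p = 0.0647 and 0.0585) or the shallow combination replicate 2 (adjusted p = 0.108). In SNGM the shallow combination replicate read 94.6 CPM and the deep one 58.8 CPM. The combination change of 0.37 in SNGM (adjusted p = 0.0995) became 0.71 with the shallow library alone and 0.03 with the deep one alone, values that have no replicate of their own. KCNMB3 overlaps PIK3CA in RefSeq, and the strand of counting is not given in the sources used here, so reads of the 2 genes may be shared.

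PIK3R1, the regulatory subunit, moved in opposite directions in different lines. On vehicle it read 62.0 and 62.4 CPM in Ishikawa-S33Y, 129.5 and 136 in Ishikawa, 14.7 and 13.9 in HEC265 and 60.2 and 57.9 in SNGM. Ishikawa was highest and HEC265 lowest, -3.13 on the log2 scale from Ishikawa (adjusted p = 5.15e-15), and each pair of lines was called except SNGM and Ishikawa-S33Y (-0.07, adjusted p = 0.650). With SM08502 it read 79.4 and 73.5 CPM in Ishikawa-S33Y, 105 and 90.2 in Ishikawa, 20.2 and 19.3 in HEC265 and 45.4 and 45.2 in SNGM. Both treated libraries lay below vehicle in Ishikawa and SNGM and above it in Ishikawa-S33Y and HEC265. The fall in Ishikawa (-0.44, SE 0.13, adjusted p = 0.0255) and the rise in HEC265 (0.44, adjusted p = 0.0256) were called. The values 0.29 in Ishikawa-S33Y (adjusted p = 0.102) and -0.38 in SNGM (adjusted p = 0.0879) were not, and the mean over lines was -0.02 (95% interval -0.16 to 0.12).

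The differences between those changes were tested directly. The SM08502 change of PIK3R1 was higher in HEC265 than in Ishikawa by 0.89 (adjusted p = 0.0124) and than in SNGM by 0.82 (adjusted p = 0.0205). It was higher in Ishikawa-S33Y than in Ishikawa by 0.74 (adjusted p = 0.0395), and lower in SNGM than in Ishikawa-S33Y, a difference of -0.67 (adjusted p = 0.0259). Ishikawa with SNGM (0.07) and Ishikawa-S33Y with HEC265 (0.15) were not shown to differ. These were the 4 calls among the 7 genes for differences in the SM08502 change, against a background of all genes tested in which 2.43% were called for Ishikawa-S33Y against Ishikawa, 3.66% for SNGM against Ishikawa, 2.56% for HEC265 against Ishikawa, 9.83% for SNGM against Ishikawa-S33Y, 5.66% for HEC265 against Ishikawa-S33Y and 2.03% for HEC265 against SNGM. In sign the SNGM change, itself not called, went with that in Ishikawa. CTNNB1 status and dose cannot be told apart from the line, and the cause was not tested. With the combination the libraries read 97.8 and 98.5, 81.0 and 76.6, 48.2 and 53.5 and 17.7 and 20.0 CPM in Ishikawa, Ishikawa-S33Y, SNGM and HEC265. The fall in Ishikawa (-0.43, adjusted p = 0.0218) and the rises in Ishikawa-S33Y (0.34, adjusted p = 0.0443) and HEC265 (0.37, adjusted p = 0.0485) were called. The combination change was not shown to differ between HEC265 and SNGM (difference 0.59, adjusted p = 0.0712).

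These single-line calls of PIK3R1 rest on few libraries. The SM08502 call in Ishikawa was lost in Ishikawa libraries alone (adjusted p = 0.302, range 0.00381 to 0.302) and without either vehicle replicate or SM08502 replicate 2 of that line (adjusted p = 0.0761, 0.150 and 0.245). The call in HEC265 was lost with quantile normalization (adjusted p = 0.0849, range 2.95e-04 to 0.0849) and without any 1 of its vehicle or SM08502 libraries (adjusted p from 0.0906 to 0.167). The combination calls in Ishikawa, Ishikawa-S33Y and HEC265 held in 28, 10 and 6 of 32 fits that left out 1 library, the lost ones in Ishikawa being those without its vehicle or combination libraries (adjusted p at most 0.128). The direction of these 5 changes was the same in each of those fits.

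Of 26 other genes of the PI3K pathway, 4 were called higher and 4 lower with SM08502 in the mean over lines (background 38.5%). Their median was -0.06 beside 0.05 for all genes. TSC2, which with TSC1 holds mTOR in check, fell most (-0.96, adjusted p = 7.95e-07), from 88.8 to 40.8 CPM in Ishikawa and from 45.4 to 22.1 CPM in HEC265. PIK3C2B, a class II PI3K, fell by 0.54 on the log2 scale (adjusted p = 2.26e-04). RPTOR, a subunit of mTOR complex 1, rose by 0.33 (adjusted p = 0.0124) and RHEB, the GTPase that switches that complex on, by 0.25 (adjusted p = 0.0388). RPTOR was not called in any single line, and RHEB only in Ishikawa-S33Y (0.78, adjusted p = 0.00348). In Ishikawa-S33Y 2 of the list rose and 2 fell (background 29.1%), and in HEC265 1 rose and 6 fell (14.7%). The counts were 0 and 0 in SNGM (7.86%) and 0 and 3 in Ishikawa (15.2%). The other catalytic subunits PIK3CB and PIK3CD were not called in the mean over lines (-0.11 and -0.10).

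**Figure D2:**
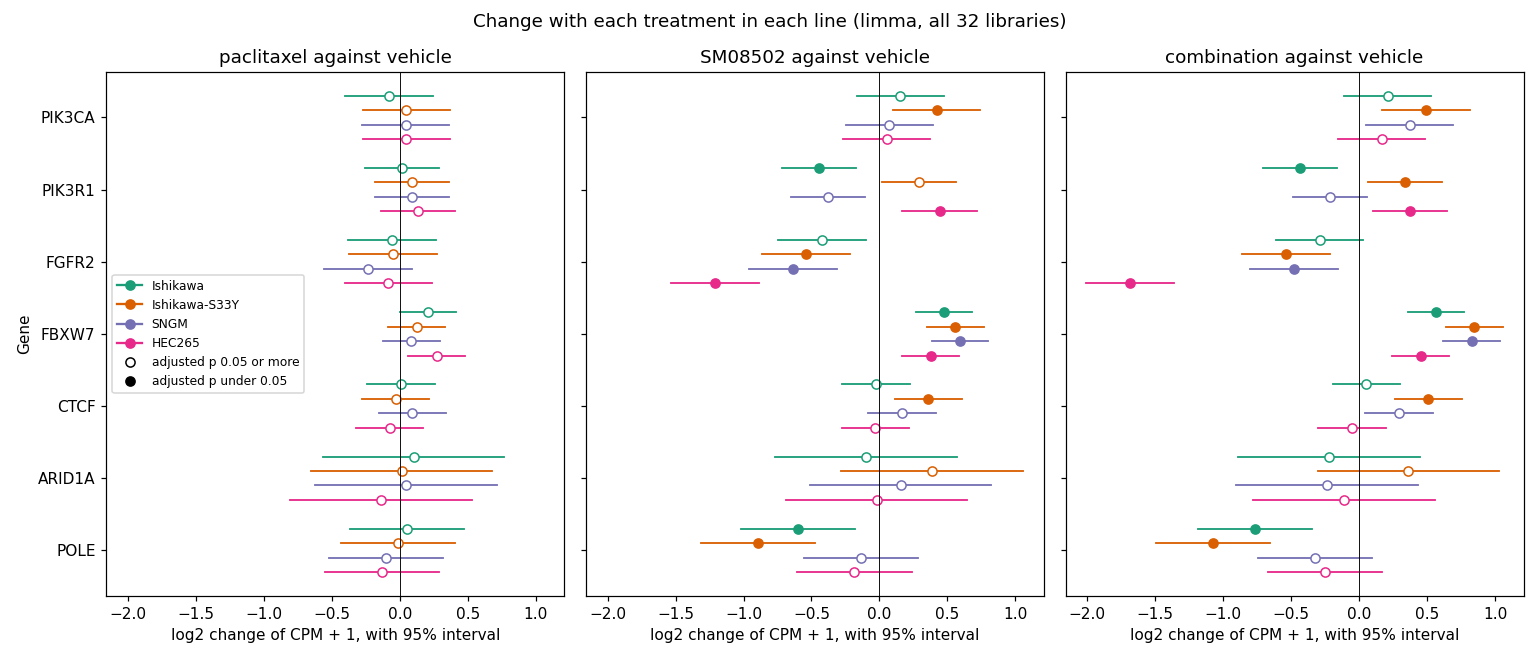
Log2 change of CPM + 1 against vehicle (horizontal axis, with 95% intervals) for each gene (vertical axis) and line (colours), with 1 panel for each treatment; filled points have an adjusted p under 0.05. FBXW7 points lie right of 0 with SM08502 and the combination in all 4 lines, PIK3R1 points lie on both sides, and no point of the paclitaxel panel is filled.

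FBXW7, the substrate-binding part of its ubiquitin ligase, was the only 1 of the 7 genes called in the same direction in all 4 lines with SM08502. Vehicle libraries read 22.6 and 22.5 CPM in Ishikawa-S33Y, 28.5 and 24.1 in Ishikawa, 35.2 and 34.5 in HEC265 and 30.1 and 33.6 in SNGM. With SM08502 they read 32.1 and 35.2 CPM in Ishikawa-S33Y, 34.7 and 39.1 in Ishikawa, 45.6 and 45.4 in HEC265 and 49.1 and 47.8 in SNGM. Each treated library lay above each vehicle library of its line, by 30.7% in HEC265 to 52.1% in SNGM in mean CPM. The log2 change was 0.47 in Ishikawa (adjusted p = 0.00302), 0.56 in Ishikawa-S33Y (adjusted p = 3.08e-04), 0.38 in HEC265 (adjusted p = 0.0137) and 0.59 in SNGM (adjusted p = 6.68e-04), with an SE of 0.10. The mean over lines was 0.50 (SE 0.05, adjusted p = 1.47e-07), and 0 of the 6 differences between lines were called, the largest being -0.22 (95% interval -0.51 to 0.08) between HEC265 and SNGM.

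With the combination FBXW7 read 40.5 and 42.1 CPM in Ishikawa-S33Y, 39.1 and 39.6 in Ishikawa, 48.3 and 47.8 in HEC265 and 62.7 and 52.3 in SNGM. The changes from vehicle in that order of lines were 0.85, 0.57, 0.45 and 0.83, all called (adjusted p from 1.31e-06 to 0.00265), and their mean was 0.67 (adjusted p = 1.28e-09). In each line except Ishikawa both combination libraries lay above both SM08502 libraries, but the mean difference of 0.17 (95% interval 0.07 to 0.28) was not called (adjusted p = 0.196). The means over lines were called under each alternative and in each of the 32 fits that left out 1 library. Single-line SM08502 calls were lost in fits to Ishikawa or SNGM alone (adjusted p = 0.150 and 0.0879, ranges 9.79e-04 to 0.150 and 6.42e-05 to 0.0879). In HEC265 the call was lost after median re-centring or quantile normalization (adjusted p = 0.121 and 0.122, range 5.59e-04 to 0.122) and without any 1 of its vehicle or SM08502 libraries (at most 0.0973). In Ishikawa it was also lost without replicate 2 of vehicle or of SM08502 (adjusted p = 0.0735 and 0.0576), and the combination call there in Ishikawa libraries alone (adjusted p = 0.0798).

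On vehicle FBXW7 was higher in SNGM and HEC265 than in Ishikawa-S33Y, by 0.48 and 0.61 (adjusted p = 2.85e-04 and 2.00e-05), and than in Ishikawa, by 0.27 and 0.40 (adjusted p = 0.0226 and 0.00166). Neighbours in this order, Ishikawa-S33Y with Ishikawa (-0.21, adjusted p = 0.0885) and SNGM with HEC265, were not called apart. The difference between SNGM and Ishikawa was lost without replicate 2 of either vehicle group (adjusted p = 0.273 and 0.189), with the length score as covariate (adjusted p = 0.176) and in a fit to these lines alone (adjusted p = 0.107, range 0.00345 to 0.176). Ishikawa-S33Y was called lower than Ishikawa without Ishikawa vehicle replicate 2 (adjusted p = 0.0299). RefSeq places FBXW7-AS1 and MIR3140 within FBXW7, and without the strand of counting reads of FBXW7-AS1 cannot be told apart.

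Of 12 ligase partners and substrates of FBXW7, 3 were called higher and 3 lower with SM08502 in the mean over lines (background 38.5%). Their median was -0.01 beside 0.05 for all genes. Of the ligase core, RBX1 (0.42, adjusted p = 0.0108) and SKP1 (0.27, adjusted p = 0.00317) rose, and the scaffold CUL1 was not called (0.10, adjusted p = 0.205). RBX1 was not called in any single line. Among genes of its substrates, CCNE1, which encodes cyclin E1, fell by 0.28 on the log2 scale (adjusted p = 9.58e-04) and the mitotic kinase AURKA by 0.29 (adjusted p = 0.00411). CCNE1 was called lower in Ishikawa-S33Y, where it went from 31.7 to 18.4 CPM, and AURKA in SNGM, where it went from 85.7 to 55.8 CPM. MYC was also called lower in the mean over lines (-0.18, adjusted p = 0.0260), and by line only in Ishikawa (-0.79, adjusted p = 2.88e-04). NOTCH1 was called lower in Ishikawa (-1.42, adjusted p = 0.0182) but not in the mean over lines (-0.35, adjusted p = 0.164). These are mRNA levels; the proteins that FBXW7 marks were not measured. In Ishikawa-S33Y 1 of the list rose and 1 fell (background 29.1%), and in HEC265 1 rose and 0 fell (14.7%). The counts were 0 and 2 in SNGM (7.86%) and 0 and 2 in Ishikawa (15.2%).

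ARID1A, the SWI/SNF subunit, was not called for any treatment, and the error of its changes was the largest of the 7 genes. In Ishikawa the replicates read 73.6 and 102 CPM with vehicle, 135 and 63.8 with paclitaxel, 113 and 57.5 with SM08502 and 71.9 and 76.4 with the combination. In SNGM they read 168 and 260.1 with vehicle, 173 and 269 with paclitaxel, 268 and 202 with SM08502 and 239 and 131 with the combination. In the 3 discordant Ishikawa groups, and in the vehicle, paclitaxel and combination groups of SNGM, the replicate with the higher ARID1A value is the one with the higher length score; in the Ishikawa combination group it is the other. Length scores were -0.68 and -0.27 for SNGM vehicle and -0.52 and -0.92 for the SNGM combination. With SM08502 in SNGM the scores were nearly equal (-0.60 and -0.59) while ARID1A still differed between replicates.

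In Ishikawa-S33Y and HEC265 the ARID1A replicates lay closer. Ishikawa-S33Y had a mean of 117 ± 10.2 with vehicle, and its libraries read 159 and 148 CPM with SM08502 and 166 and 136 with the combination, both treated pairs above vehicle. HEC265 read 182 and 168, 167 and 177 and 159.9 and 163 CPM. The log2 change with SM08502 was -0.10 in Ishikawa, 0.39 in Ishikawa-S33Y, -0.02 in HEC265 and 0.16 in SNGM, with an SE of 0.32 in each. The mean over lines was 0.11 (95% interval -0.23 to 0.44, adjusted p = 0.646). The Ishikawa-S33Y change was called when only that line set the spread (adjusted p = 0.0198) and, at 0.59, with the length score as covariate (adjusted p = 0.0141, range 0.0141 to 0.557). The covariate also gave a called mean over lines of 0.28 (adjusted p = 0.0182). The score was itself lower with SM08502 than with vehicle in Ishikawa-S33Y and HEC265.

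On vehicle ARID1A was higher than in Ishikawa in SNGM by 1.26 (adjusted p = 0.00161) and in HEC265 by 1.01 (adjusted p = 0.00942), and higher in SNGM than in Ishikawa-S33Y by 0.83 (adjusted p = 0.0301). The order was Ishikawa, Ishikawa-S33Y, HEC265 and SNGM, and no neighbours in it were called apart. The length scores of the vehicle libraries follow the same order of lines with no overlap, so the line and the score cannot be told apart there: they were -1.23 and -1.36 in Ishikawa-S33Y, -2.92 and -2.50 in Ishikawa, -0.98 and -1.07 in HEC265 and -0.68 and -0.27 in SNGM. With the score as covariate the differences from Ishikawa became -0.52 in SNGM (adjusted p = 0.190), -0.34 in HEC265 (adjusted p = 0.310) and -0.70 in Ishikawa-S33Y (adjusted p = 0.0329), the last instead of 0.43. The direction of the line differences in ARID1A therefore depended on that covariate. The call between SNGM and Ishikawa-S33Y was also lost without the filter, after quantile normalization (adjusted p = 0.0658 and 0.0609, range 0.00498 to 0.462) and without either Ishikawa-S33Y vehicle replicate or SNGM vehicle replicate 2 (adjusted p = 0.0620, 0.130 and 0.277, the difference being 0.52 without the last). The call between HEC265 and Ishikawa was lost without vehicle replicate 1 of either line (adjusted p = 0.103 for Ishikawa and 0.0521 for HEC265).

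**Figure D3:**
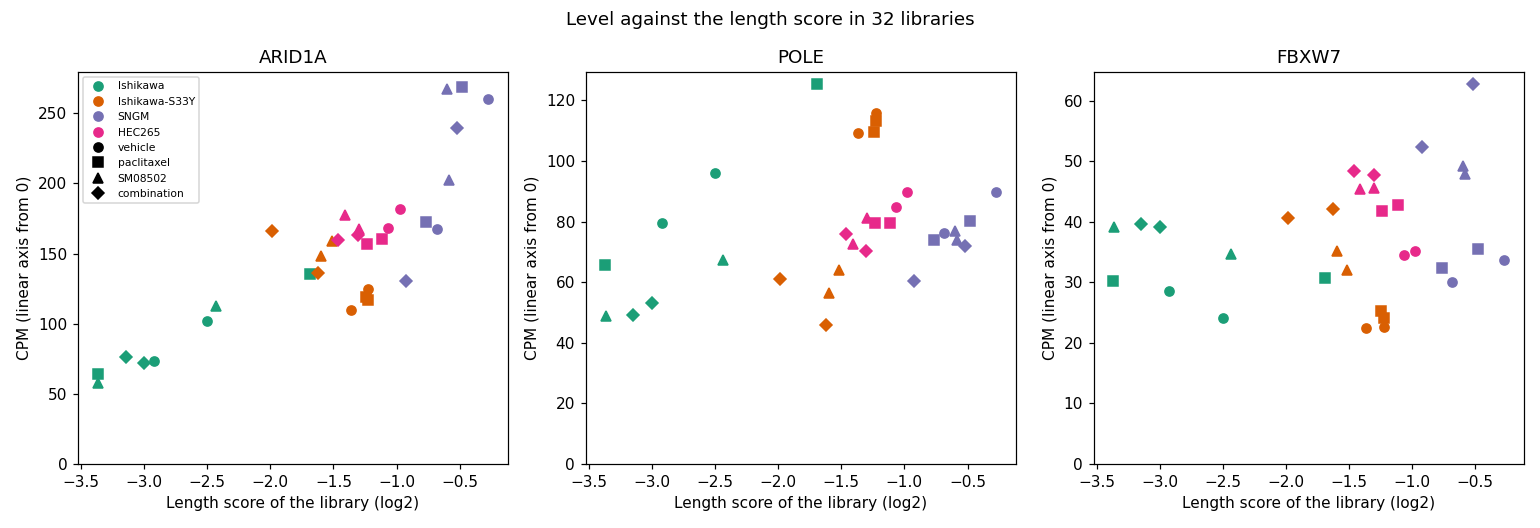
CPM of ARID1A, POLE and FBXW7 (vertical axes, linear from 0) against the length score of each library (horizontal axes, log2); colours are lines, symbols are treatments and each point is 1 library. ARID1A rises with the score across the libraries, POLE does so within Ishikawa, and FBXW7 shows no such order.

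Of the 26 SWI/SNF partners of ARID1A, 24 were in the table and 23 were tested, ACTL6B falling below the filter. With SM08502 4 were called higher and 6 lower in the mean over lines (background 38.5%), with a median of -0.01 beside 0.05 for all genes. BRD7 (0.50, adjusted p = 8.17e-04), a subunit of the polybromo form of the complex, and SMARCE1 (0.34, adjusted p = 3.34e-06), a core subunit, rose most. SMARCE1 was called higher in each of the 4 lines, from 156 to 188 CPM in Ishikawa. PHF10 (-0.38, adjusted p = 6.66e-05) and PBRM1 (-0.37, adjusted p = 8.49e-04), which belong to the same polybromo form, fell most, so BRD7 and these subunits moved in opposite directions. The nearest relative of ARID1A, ARID1B, had a value of 0.04 (adjusted p = 0.814). In Ishikawa-S33Y 6 of the list rose and 3 fell (background 29.1%), and in HEC265 3 rose and 1 fell (14.7%). The counts were 2 and 1 in SNGM (7.86%) and 1 and 1 in Ishikawa (15.2%).

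CTCF, the loop-boundary protein, was highest in HEC265 and rose with SM08502 in Ishikawa-S33Y. Vehicle libraries read 63.5 and 67.4 CPM in Ishikawa-S33Y, 63.1 and 65.6 in Ishikawa, 158 and 156 in HEC265 and 63.6 and 65.4 in SNGM. HEC265 was 2.44-fold, 2.40-fold and 2.43-fold of Ishikawa, Ishikawa-S33Y and SNGM (adjusted p from 5.14e-09 to 7.63e-09), which were not called apart (log2 differences of 0.02, 0.00 and -0.02 for Ishikawa-S33Y and SNGM minus Ishikawa and for SNGM minus Ishikawa-S33Y). With the length score as covariate Ishikawa-S33Y and SNGM were instead called lower than Ishikawa, with differences of -0.32 and -0.54 (adjusted p = 0.0237 and 0.00262, ranges 0.0237 to 1 and 0.00262 to 1), and HEC265 stayed called higher than each. In Ishikawa-S33Y CTCF read 84.5 and 83.9 CPM with SM08502 and 92.3 and 94.6 with the combination. All 4 libraries lay above vehicle, and the changes were 0.36 (adjusted p = 0.0273) and 0.51 (adjusted p = 0.00170). The SM08502 call was lost without any 1 of the 4 vehicle and SM08502 libraries of that line (adjusted p from 0.0713 to 0.154).

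In the other lines CTCF read 70.7 and 56.4 CPM in Ishikawa, 75.3 and 69.7 in SNGM and 149 and 159 in HEC265 with SM08502. The values were -0.03, 0.17 and -0.03, none called, and the mean over lines was 0.12 (adjusted p = 0.127). No difference between lines in the SM08502 change of CTCF was called. With the combination it read 69.8 and 64.0, 75.9 and 82.8 and 158 and 145 CPM, and the mean over lines rose by 0.20 (adjusted p = 0.00810). The combination change was lower in HEC265 than in Ishikawa-S33Y, a difference of -0.56 (adjusted p = 0.0274). Together with the FGFR2 and PIK3R1 differences this made 1 of 7 genes called for the difference in combination change between Ishikawa-S33Y and Ishikawa (background 10.5%), 0 for SNGM and Ishikawa (7.71%), 2 for HEC265 and Ishikawa (4.73%), 1 for SNGM and Ishikawa-S33Y (22.5%), 2 for HEC265 and Ishikawa-S33Y (15.1%) and 1 for HEC265 and SNGM (4.89%).

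Of 12 genes around CTCF and cohesin, 5 were called higher and 1 lower with SM08502 in the mean over lines (background 38.5%). Their median was 0.13 beside 0.05 for all genes. The genes of the cohesin loader, MAU2 (0.45, adjusted p = 8.46e-04) and NIPBL (0.28, adjusted p = 0.00201), rose most. STAG1, a cohesin subunit, fell by 0.40 on the log2 scale (adjusted p = 1.49e-05), from 195 to 129.8 CPM in HEC265. In Ishikawa-S33Y 6 of the list rose and 1 fell (background 29.1%), and in HEC265 2 rose and 1 fell (14.7%). The counts were 0 and 0 in SNGM (7.86%) and 1 and 0 in Ishikawa (15.2%).

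POLE, the leading-strand polymerase subunit, fell in Ishikawa-S33Y and Ishikawa. On vehicle it read 116 and 109 CPM in Ishikawa-S33Y, 79.5 and 96.0 in Ishikawa, 89.7 and 84.8 in HEC265 and 76.2 and 89.9 in SNGM. Ishikawa-S33Y was highest, and 0 of 6 pairs of lines was called, SNGM minus Ishikawa-S33Y being the nearest to it (-0.44, adjusted p = 0.0664). That difference was called under 5 of the 11 alternatives (adjusted p 7.17e-06 to 0.117). With SM08502 POLE read 64.0 and 56.4 CPM in Ishikawa-S33Y, 67.4 and 48.8 in Ishikawa, 76.8 and 73.9 in SNGM and 81.1 and 72.5 in HEC265. Treated libraries lay below vehicle in every line except SNGM, where they overlapped. The log2 change was -0.89 in Ishikawa-S33Y (SE 0.20, adjusted p = 0.00222), where mean CPM fell by 46.5%, and -0.60 in Ishikawa (adjusted p = 0.0489). It was -0.13 in SNGM (95% interval -0.55 to 0.29) and -0.18 in HEC265 (95% interval -0.60 to 0.24), neither called. The mean over lines was -0.45 (SE 0.10, adjusted p = 0.00126).

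With the combination POLE read 61.0 and 45.8 CPM in Ishikawa-S33Y, 53.0 and 49.1 in Ishikawa, 72.0 and 60.4 in SNGM and 75.9 and 70.2 in HEC265, below vehicle in every line. It fell by 1.07 on the log2 scale in Ishikawa-S33Y (adjusted p = 2.37e-04) and by 0.77 in Ishikawa (adjusted p = 0.00978), with -0.32 in SNGM and -0.25 in HEC265 not called and a mean over lines of -0.60 (adjusted p = 4.58e-05). The changes in SNGM and HEC265 were not shown to differ from that in Ishikawa-S33Y with SM08502 (adjusted p = 0.0978 and 0.164) or with the combination (adjusted p = 0.0631 and 0.0574), but the calls depended on the setting: with SM08502 they were made under 4 and 2 of 11 alternatives (adjusted p 0.00530 to 0.175 and 0.00383 to 0.288), and with the combination under 5 each (adjusted p 0.00611 to 0.187 and 0.00110 to 0.196). The length score moved with POLE in Ishikawa: the paclitaxel replicates read 125 and 65.5 CPM at scores of -1.69 and -3.37, and the SM08502 replicates read 67.4 and 48.8 CPM at -2.43 and -3.36. In Ishikawa-S33Y the score was -1.23 and -1.36 with vehicle and -1.51 and -1.60 with SM08502. With the score as covariate the mean over lines was -0.34 with SM08502 (adjusted p = 7.72e-05), the Ishikawa-S33Y change was -0.76 (adjusted p = 2.74e-05) and the Ishikawa change was -0.51 (adjusted p = 0.00295). The SM08502 call in Ishikawa lies at the threshold: it held under 7 of 11 alternatives (adjusted p 0.00295 to 0.347) and in 7 of 32 fits that left out 1 library (adjusted p 0.00530 to 0.416). The Ishikawa combination call was lost in Ishikawa libraries alone (adjusted p = 0.20, range 8.45e-04 to 0.20) and without replicate 2 of its vehicle or combination (adjusted p = 0.110 and 0.0814).

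None of the other subunits of polymerase epsilon, POLE2, POLE3 and POLE4, was called lower with POLE in the mean over lines. Of 12 other genes of the replicative polymerases, 3 were called higher and 3 lower with SM08502 in the mean over lines (background 38.5%). Their median was 0.15 beside 0.05 for all genes. POLE3, an accessory subunit of the same enzyme, rose by 0.36 (adjusted p = 5.71e-06), and POLE2 and POLE4 had values of 0.19 (adjusted p = 0.0931) and 0.17 (adjusted p = 0.194). POLA2 (-0.64, adjusted p = 1.20e-07) and PRIM1 (-0.34, adjusted p = 1.60e-04), subunits of the polymerase alpha and primase complex that starts each strand, fell most, and PRIM2, the other primase subunit, rose by 0.29 (adjusted p = 0.00267). POLA2 was called lower in each of the 4 lines, from 45.5 to 29.8 CPM in HEC265. In Ishikawa-S33Y 3 of the list rose and 3 fell (background 29.1%), and in HEC265 1 rose and 2 fell (14.7%). The counts were 2 and 2 in SNGM (7.86%) and 0 and 2 in Ishikawa (15.2%).

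Of 18 other genes recurrently mutated in endometrial cancer, 3 were called higher and 3 lower with SM08502 in the mean over lines (background 38.5%). Their median was 0.04 beside 0.05 for all genes. RPL22, a ribosomal protein gene, rose by 0.67 (adjusted p = 3.17e-09) and was called in each of the 4 lines, from 180.2 to 307 CPM in Ishikawa-S33Y. SPOP, another ubiquitin ligase adaptor, rose by 0.25 (adjusted p = 7.64e-05). ERBB2, a receptor tyrosine kinase, fell by 0.75 on the log2 scale (adjusted p = 3.90e-06), from 105 to 47.4 CPM in Ishikawa-S33Y, and the transcription factor SOX17 by 0.39 (adjusted p = 8.06e-06). SOX17 had 0 reads in the vehicle and SM08502 libraries of SNGM. In Ishikawa-S33Y 3 of the list rose and 2 fell (background 29.1%), and in HEC265 2 rose and 3 fell (14.7%). The counts were 2 and 0 in SNGM (7.86%) and 1 and 2 in Ishikawa (15.2%). Of the 8 epithelial markers 0 were called higher (background 22.6%) and 6 lower (15.8%) in the mean over lines, MUC1 (-0.91) and CDH1 (-0.57) most. Their median was -0.38 beside 0.05 for all genes. COL1A1 was the only one of the 4 stromal markers tested that was called (-0.96). The part of these markers in the values above was not tested.

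**Figure D4:**
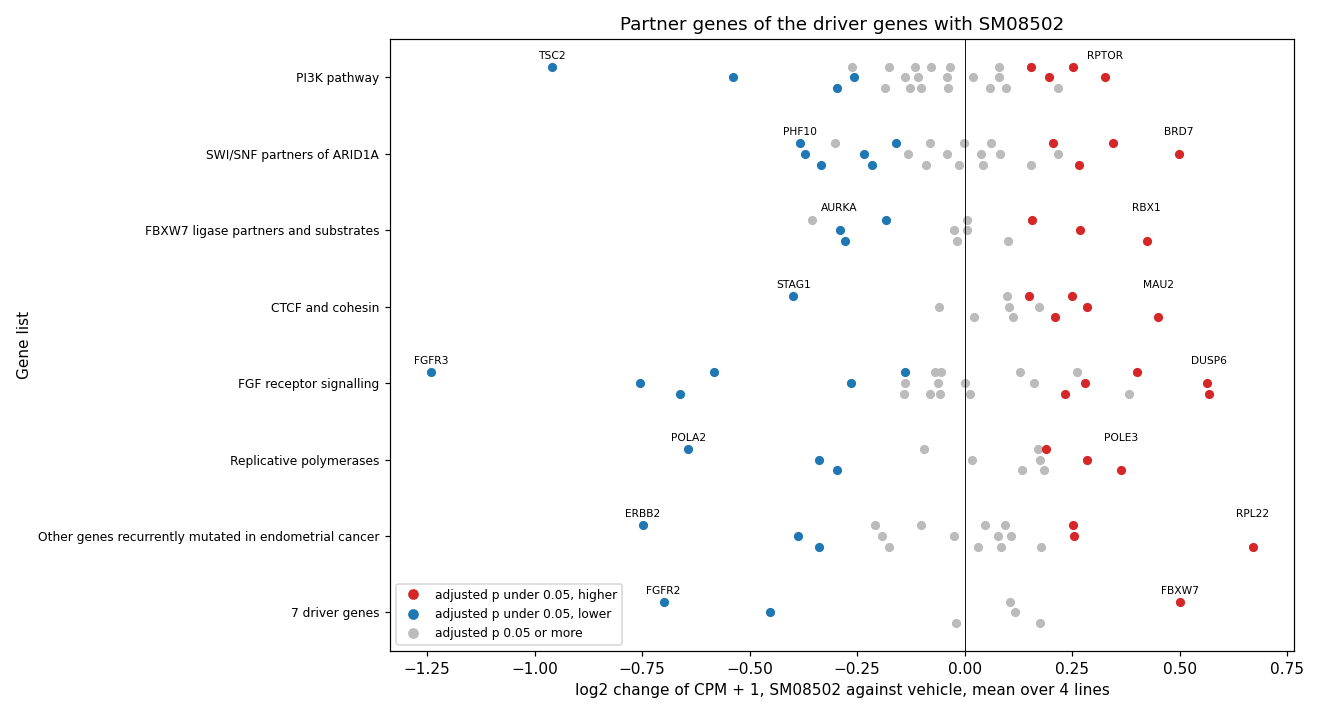
Log2 change of CPM + 1 with SM08502 against vehicle in the mean over 4 lines (horizontal axis) for the tested genes of each list (vertical axis); red and blue points have an adjusted p under 0.05, and the highest and the lowest called gene of each list are named. Called genes lie on both sides of 0 in each of the 7 lists and among the 7 driver genes, the lowest being FGFR3 at -1.24.

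Paclitaxel alone gave no call among the 7 genes. Called were 0 of 7 in Ishikawa, where 0.0118% of all genes tested were called, 0 in Ishikawa-S33Y (0.0%), 0 in SNGM (0.0176%), 0 in HEC265 (0.00588%) and 0 in the mean over lines (0.0%). At an adjusted p under 0.05 limma voom on whole reads also called 0 of the 7 in each. At an unadjusted p under 0.05 limma gave 1 of the 7, FBXW7, in HEC265 and in the mean over lines, and 0 in the other lines. Of the 17011 genes tested, 158 passed that unadjusted threshold in HEC265 and 480 in the mean over lines. In Ishikawa, Ishikawa-S33Y and SNGM 1254, 122 and 300 did. With paclitaxel FBXW7 read 24.1 and 25.2 CPM in Ishikawa-S33Y, 30.6 and 30.2 in Ishikawa, 41.7 and 42.8 in HEC265 and 32.3 and 35.5 in SNGM. Its values lay above vehicle without overlap in Ishikawa, Ishikawa-S33Y and HEC265, and the mean difference was 0.17 (95% interval 0.07 to 0.28, limma adjusted p = 1). For the other genes the mean over lines was between -0.11 for FGFR2 (95% interval -0.27 to 0.05) and 0.08 for PIK3R1 (95% interval -0.06 to 0.22).

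The combination was set against SM08502 alone to ask what paclitaxel added. Of the 7 genes 0 were called in Ishikawa (background 0.0%), Ishikawa-S33Y (0.129%), SNGM (0.253%), HEC265 (0.00588%) or the mean over lines (0.047%). At an adjusted p under 0.05 voom also called 0. At an unadjusted p under 0.05 limma gave FBXW7 in Ishikawa-S33Y, SNGM and the mean over lines, and FGFR2 in HEC265. Such unadjusted values were common: of the 17011 genes tested, 2088 passed in Ishikawa-S33Y, 2704 in SNGM and 1951 in the mean over lines. In HEC265 237 passed, and in Ishikawa 308. The combination change beyond the sum of both single-drug changes was called for 0 of the 7 genes in Ishikawa (0.00588%), Ishikawa-S33Y (0.0%), SNGM (0.00588%), HEC265 (0.0%) and the mean over lines (0.0%). Limma gave 0 at an unadjusted p under 0.05, and voom 0 at an adjusted p under 0.05. For FBXW7 the change beyond the sum was 0.00 in the mean over lines (95% interval -0.15 to 0.15), and for FGFR2 it was -0.39 in HEC265 (95% interval -0.85 to 0.06).

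The genes most like each of the 7 were sought among 12117 genes over the 32 libraries by Pearson's r of log2(CPM + 1), given as a description because the libraries share lines and treatments. In level the nearest were FGFR4 for FGFR2 (r = 0.98), CARD8 for PIK3CA (0.89), KHDRBS3 for PIK3R1 (0.98), ZSCAN26 for FBXW7 (0.90), BCL9 for ARID1A (0.96), NUP50 for CTCF (0.99) and HDAC4 for POLE (0.90). After each line's mean was taken off, FGFR2 ran closest with IGF2BP3 (0.93) and IARS (0.93), PIK3CA with LRRC8B (0.95) and SEC24A (0.92), and PIK3R1 with TCF19 (0.84) and VDR (0.83). FBXW7 ran closest with SLC10A5 (0.92) and SYF2 (0.92), ARID1A with GPATCH8 (0.95) and RIN3 (0.95), CTCF with ICK (0.91) and SRPK2 (0.91), and POLE with MYH14 (0.96) and KDM2B (0.96).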

How the data were processed

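Bulk mRNA sequencing of 32 libraries (4 lines, 4 treatments, 2 replicates) was analysed. The authors deposited 1 table of log10(CPM + 1) for 35238 genes, the log10 scale and the offset being read from the values. Per the submitters' processing notes the tools were bcl2fastq, STAR and kallisto with GRCh38; their roles, the versions and the annotation are not given in the sources used here. Per the labels' protocols, rRNA was depleted and libraries were sequenced on 1 platform. Deposited splicing tables were not analysed here.

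From these values CPM was recovered, and 100% of values under 1000 reads came to whole reads within 0.1 read, which gave the depth (median 20.6 M, range 1.61 to 34.1 M). Genes above 1 CPM in at least 2 samples (17011) were tested on log2(CPM + 1) with limma 3.58.1 in R 4.3.3, with 16 group means, an intensity trend, 16 residual and 4.90 prior degrees of freedom, Benjamini-Hochberg adjustment over all tested genes in each of 48 contrasts, two-sided, called under 0.05. A log2 change with this pseudocount understates changes of low genes. Mean over lines weights each line equally. The test was tried on simulated data.

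The members and gene lists were chosen with earlier results of these data known. Of each list, the 2 called genes with the largest rise and fall in the mean over lines were named, and of likeness the nearest gene in level and 2 in treatment pattern among genes with a mean log2 level of at least 2. FGFR1, PIK3CB, PIK3CD, ARID1B, CUL1, MYC, NOTCH1, POLE2, POLE4, the FGF ligands, ETV5, FRS2, MUC1, CDH1 and COL1A1 were named beside that rule. Alternatives were no filter, a stricter filter (mean log2 of 2), a pseudocount of 0.1, median re-centring, quantile normalization, no trend, the compared lines alone, a replicate block, limma voom on whole reads, both shallow libraries left out, the length score as covariate, and each library left out in turn; a lone library left in a group is then assumed to vary like the other groups.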

Additional observations from a re-analysis of the deposited data

Results flagged for a closer look

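PIK3R1 was marked because its change with SM08502 differed between lines in a direct test of the difference (limma, 2 libraries in each of the 4 groups that enter it). The difference in log2 change was 0.74 for Ishikawa-S33Y minus Ishikawa (adjusted p = 0.0395), 0.89 for HEC265 minus Ishikawa (adjusted p = 0.0124), -0.67 for SNGM minus Ishikawa-S33Y (adjusted p = 0.0259) and 0.82 for HEC265 minus SNGM (adjusted p = 0.0205), with an SE of 0.19. The first was called in 13 of 32 fits with 1 library left out and the others in 28, 24 and 24. With the combination the PIK3R1 difference was 0.77 for Ishikawa-S33Y minus Ishikawa (adjusted p = 0.0114), 0.81 for HEC265 minus Ishikawa (adjusted p = 0.0137) and -0.55 for SNGM minus Ishikawa-S33Y (adjusted p = 0.0374), called in 31, 27 and 25 of 32 such fits. The combination difference for HEC265 minus SNGM, 0.59, was not called (adjusted p = 0.0712). Each of these comparisons uses the same vehicle libraries as its counterpart with SM08502.

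FGFR2 was marked because its fall with the combination in HEC265 exceeded that in the other lines, with differences of -1.39 against Ishikawa (adjusted p = 7.88e-04), -1.15 against Ishikawa-S33Y (adjusted p = 0.00113) and -1.21 against SNGM (adjusted p = 0.00229). All 3 were called under each of 11 alternatives and with each of the 32 libraries left out. CTCF was marked for -0.56 between HEC265 and Ishikawa-S33Y with the combination (adjusted p = 0.0274), called in 26 of 32 fits with 1 library left out. SM08502 dose differed between the lines compared, and dose and line cannot be told apart.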

How the results depend on the processing

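Over the 7 genes and 48 contrasts, 3515 of 3654 values under the alternatives other than single libraries left out kept their side of the threshold, and 100 of these had another sign where neither value was called; 45 lost a call, 89 gained one and 5 turned direction. Of 10752 values with 1 library left out 211 lost a call, 69 gained one and in 0 did a called value turn. The 5 turned with the length score as covariate, for vehicle levels against Ishikawa: ARID1A in Ishikawa-S33Y (-0.70), SNGM (-0.52) and HEC265 (-0.34), and CTCF in Ishikawa-S33Y (-0.32) and SNGM (-0.54); the cause was not tested. Of the 7 genes, those called with SM08502 in the mean over lines went from 3 to 6 with that covariate, adding PIK3CA (0.21), ARID1A (0.28) and CTCF (0.17), and from 3 to 5 with 1 library left out. The length score was itself lower with SM08502 than with vehicle in HEC265 (-1.30 and -1.41 against -0.98 and -1.07). The same held in Ishikawa-S33Y (-1.51 and -1.60 against -1.23 and -1.36), while in Ishikawa and SNGM the scores overlapped. A fit with this covariate therefore cannot separate the score from the drug in those 2 lines. By line, the SM08502 calls went to 0 in Ishikawa (from 3) and 0 in SNGM (from 2) in fits of that line alone, and to 1 in HEC265 (from 3) with quantile normalization. With 1 library left out they were 0 to 4 in Ishikawa, 2 to 6 in Ishikawa-S33Y, 1 to 3 in SNGM and 1 to 3 in HEC265. A single-line fit has fewer samples and also takes its error from that line only. Root mean square log2 differences between SM08502 replicates were 0.48 (Ishikawa), 0.18 (SNGM), 0.10 (Ishikawa-S33Y) and 0.08 (HEC265). Between vehicle replicates they were 0.22, 0.22, 0.09 and 0.07 in that order. The fit of Ishikawa-S33Y alone, with equally few samples, gained a call of ARID1A. What lay behind the lost calls was not tested. The mean over lines stayed at 0 with paclitaxel and 5 with the combination under every alternative and with each library left out. The differences between replicates 1 and 2 were correlated between treatments of a line in only some pairs, and with either sign. Their r ran from -0.57 to 0.86 in Ishikawa, -0.12 to 0.14 in Ishikawa-S33Y, -0.65 to 0.84 in SNGM and -0.15 to 0.33 in HEC265. The highest were paclitaxel with SM08502 in Ishikawa and vehicle with paclitaxel in SNGM. The replicate block left the count at 3 for SM08502 in the mean over lines and changed it by 1 in 3 comparisons, each by a call of POLE between SNGM or HEC265 and Ishikawa-S33Y (vehicle level of SNGM, combination change of both). No scaling moved the median change of all genes by 0.1. Depth limits FGFR2, FBXW7 and PIK3R1 most, with 62, 84 and 86 reads at the lowest, in the combination replicate 2 of Ishikawa-S33Y for FGFR2 and of SNGM for the others.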
